A study of Mus musculus with 4 samples.

Results

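Meis, Pbx and Pknox genes encode homeobox transcription factors of the TALE class, which serve as cofactors of Hox proteins. Meis1, Meis2, Meis3, Pbx2, Pbx3, Pbx4, Pknox1 and Pknox2 were taken by their symbols, with no threshold on signal, although the family was proposed with earlier results of these data known. Each of these 8 genes had 1 probe set that carried its symbol and no other, so 8 of the 21789 probe sets with a single symbol, and 8 of the 19938 genes they stand for, are described. The arrays profiled mouse ES cells, named in the article as the D3 line, and the embryoid bodies (EBs) they form, which are aggregates in which ES cells start to make derivatives of the germ layers. There were 4 arrays and 1 array per condition: undifferentiated ES cells at day 0, and day 7 EBs that had no ligand, retinoic acid (RA) or bexarotene. All EBs spent 2 days as hanging drops and then 5 days in suspension. Bexarotene, which is made synthetically and binds RXR, was used at 50 nM. Retinoic acid is the natural RAR ligand, and its dose was 5 µM by the sample labels, while the article gives a dose in the nanomolar range, and the files do not settle which was used. The 2 ligands therefore stand side by side here at doses that are not matched. No allele or transgene was introduced into these cells according to the labels. An EB is a mixture of cell types, so fewer cells of a type and less RNA per cell cannot be told apart on these arrays.

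Pbx proteins bind DNA next to Hox proteins and raise the selectivity of Hox binding. Meis and Pknox proteins (Pknox is also called Prep) pair with Pbx through their amino-terminal part, help keep Pbx in the nucleus and often bind the same enhancers. In the embryo these cofactors act with the Hox proteins that pattern the hindbrain, and Meis genes are known as retinoid-responsive in several tissues. RefSeq lists Stra10 among the older names of Meis2, a name given to genes stimulated by retinoic acid.

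Of the 8 genes, 5 have an entry in the RefSeq promoter table (GRCm38.p6), each a window of 300 bases that runs from 250 bases before 1 annotated start to 50 bases after it. The windows of Meis1 and Meis2 are shown because these are the genes that stood past 1.5-fold with both ligands. Both lie on the minus strand, Meis1 at chr11:19018920-19019219 and Meis2 at chr2:116064570-116064869. RefSeq extends these genes upstream to base 19019651 for Meis1 and 116067537 for Meis2, so neither window reaches the upstream end of its gene. Capitals mark the 50 bases from the annotated start onward.
Meis1: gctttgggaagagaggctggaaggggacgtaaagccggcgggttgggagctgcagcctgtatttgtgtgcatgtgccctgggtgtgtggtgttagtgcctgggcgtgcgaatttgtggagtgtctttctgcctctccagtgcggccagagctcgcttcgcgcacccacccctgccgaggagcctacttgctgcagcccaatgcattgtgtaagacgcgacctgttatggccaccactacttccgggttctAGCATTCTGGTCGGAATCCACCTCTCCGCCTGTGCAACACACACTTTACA
Meis2: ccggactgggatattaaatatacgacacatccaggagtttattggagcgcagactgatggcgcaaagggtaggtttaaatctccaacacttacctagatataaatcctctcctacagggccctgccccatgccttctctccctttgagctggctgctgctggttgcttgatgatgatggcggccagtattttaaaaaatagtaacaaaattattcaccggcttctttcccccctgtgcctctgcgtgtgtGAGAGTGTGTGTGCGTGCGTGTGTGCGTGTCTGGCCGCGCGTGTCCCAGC

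The 5 windows, those of Meis1, Meis2, Meis3, Pbx2 and Pbx4, were searched on both strands for 4 motifs, and none held a match. The motifs were TGACAG, bound by Meis and Pknox proteins, TGATNNAT, a composite Hox and Pbx site, and AGGTCA and GGTTCA, forms of the core element of retinoid receptors. Other forms of these motifs were not searched, so the windows may hold sites of another form. Over all 32851 windows in the table, TGACAG was found in 19.2%, TGATNNAT in 8.85%, AGGTCA in 16.3%, GGTTCA in 10.4% and any of the 4 in 44.1%. Sequence outside these windows was not searched, and those of Meis1, Meis2 and Meis3 do not reach the upstream end of the gene in RefSeq. The windows of Meis1 and Meis2 had a GC content of 58.3% and 51.0%, and those of Meis3, Pbx2 and Pbx4 had 66.7%, 76.0% and 59.3%, beside a median of 52.7% over all windows.

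The values are log2 probe set signal as deposited. The median signal of an array lay between 6.66 and 6.69 and the range over all arrays was 1.95 to 13.1, which gives the scale of the values below. Signals of different probe sets are not on a common scale, so each gene is compared only with itself across arrays. A gene was called past 1.5-fold when 2 arrays differed by at least 0.585 on the log2 scale, the threshold used in the article. With 1 array per condition there is no spread between replicates, no test was made and no p-value is given. As a rough scale only, a robust SD was computed from how far the RA array departed from the bexarotene array at like signal, using all genes. It was 0.0873 to 0.129 at the signal of these 8 genes, and it says nothing of the spread between cultures.

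Meis1, which together with Pbx and Hox proteins activates hindbrain and hematopoietic genes, had a signal of 7.44 in ES cells, 7.78 in EBs without a ligand, 9.67 in RA-treated EBs and 9.79 in bexarotene-treated EBs. The signals in ES cells and untreated EBs lay close together, and those of both ligand arrays stood well above them. Relative to untreated EBs, Meis1 was 3.71-fold higher with RA (log2 difference 1.89) and 4.02-fold higher with bexarotene (log2 difference 2.01). Among all 19938 genes, only 27 had a larger positive difference with RA and only 15 with bexarotene. Untreated EBs differed from ES cells by 0.35, which is below the threshold. On the log2 scale, the untreated array stood at 15.5% of the distance from ES cells to the RA array and at 14.7% of that to the bexarotene array.

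Meis2, a close relative of Meis1 with roles in neural, neural crest and limb development, had a signal of 7.96 in ES cells, 10.29 in EBs without a ligand, 11.37 in RA-treated EBs and 11.56 in bexarotene-treated EBs. Its order across the arrays was that of Meis1, but the untreated EBs already stood far above ES cells, by 5.01-fold (log2 difference 2.33). With a ligand it was higher again than in untreated EBs, by 2.12-fold with RA (log2 difference 1.08) and 2.42-fold with bexarotene (log2 difference 1.27). The untreated array stood at 68.2% of the distance from ES cells to the RA array and at 64.6% of that to the bexarotene array. From ES cells to bexarotene-treated EBs, Meis2 spanned 3.60 on the log2 scale, the widest span of the 8 genes.

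Meis3, the third Meis gene, which is linked to hindbrain patterning, had a signal of 7.59 in ES cells, 9.09 in EBs without a ligand, 9.437 in RA-treated EBs and 9.439 in bexarotene-treated EBs. It was 2.82-fold higher in untreated EBs than in ES cells (log2 difference 1.49). Both ligand arrays lay above the untreated array by 0.35, which is under the 1.5-fold threshold. The untreated array stood at 81.0% of the distance from ES cells to the RA array and at 80.9% of that to the bexarotene array. All 3 Meis genes had their lowest signal in ES cells and higher signals with both ligands than without, and they differed in how much of the distance was present without a ligand.

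Pbx2, a widely expressed Pbx gene, had a signal of 9.88 in ES cells, 10.76 in EBs without a ligand, 10.62 in RA-treated EBs and 10.68 in bexarotene-treated EBs. It was 1.85-fold higher in untreated EBs than in ES cells (log2 difference 0.89), and the EB arrays differed among themselves by at most 0.14. Pbx3, which is known for roles in hindbrain and spinal cord circuits, had a signal of 9.17 in ES cells, 10.84 in EBs without a ligand, 10.90 in RA-treated EBs and 10.80 in bexarotene-treated EBs. It was 3.18-fold higher in untreated EBs than in ES cells (log2 difference 1.67), and its signals on the 3 EB arrays spanned 0.10. Pbx4, known mainly from testis, had signals of 7.93, 7.84, 7.93 and 7.84 in the same order, a span of 0.097 over all 4 arrays. It was the flattest of the 8 genes, and its span was under the robust SD of 0.129 at its signal.

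Pknox1 and Pknox2 differed from each other. Pknox1, a broadly expressed partner of Pbx that is needed in the early embryo, had its highest signal in ES cells, at 7.29, and lower signals of 6.82 in EBs without a ligand, 6.93 in RA-treated EBs and 7.07 in bexarotene-treated EBs. Its difference between untreated EBs and ES cells was -0.48, or 1.39-fold, and was not past the threshold. Pknox2, its more tissue-restricted relative, had a signal of 7.45 in ES cells, 9.71 in EBs without a ligand, 9.32 in RA-treated EBs and 9.34 in bexarotene-treated EBs. It was 4.81-fold higher in untreated EBs than in ES cells (log2 difference 2.27). Both ligand arrays stood below the untreated array, by log2 differences of -0.39 with RA and -0.37 with bexarotene, the opposite sign to the Meis genes, and neither was past 1.5-fold.

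**Figure D1:**
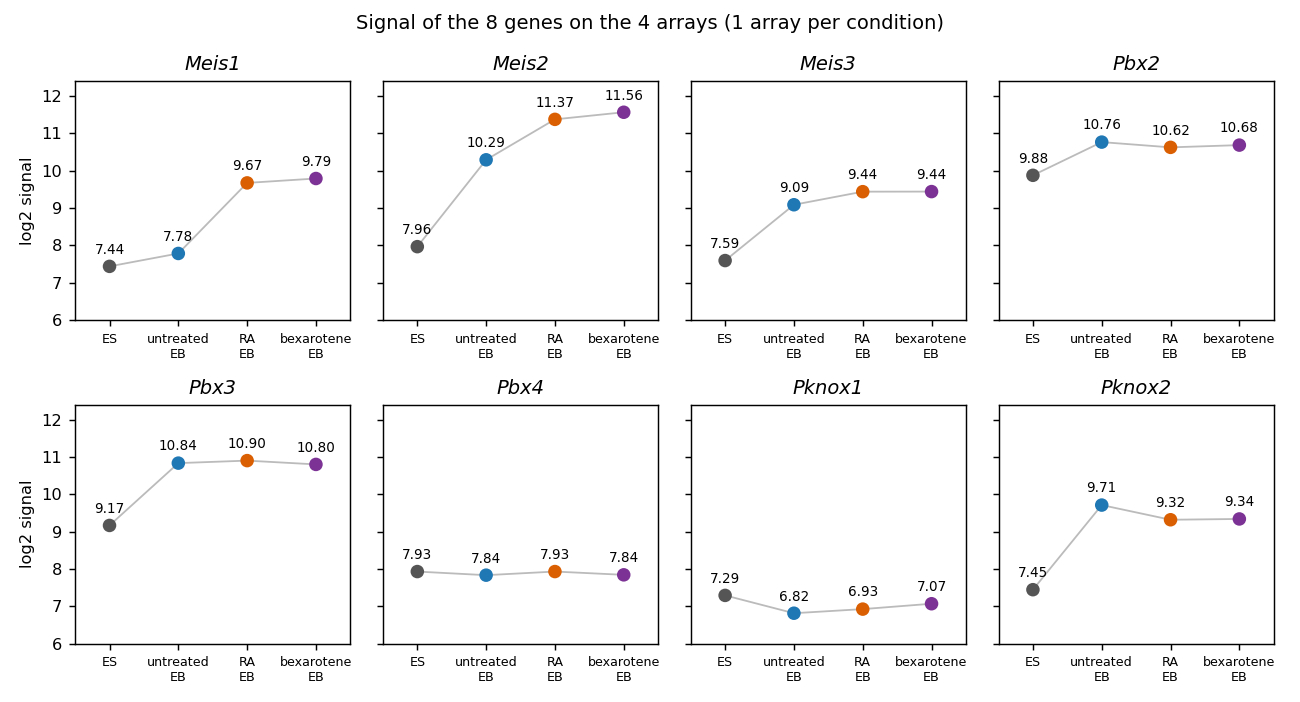
Log2 signal (y axis) of the 8 genes on the 4 arrays named on the x axis, with 1 point per array and no replicates; lines only join the points of a gene. Meis1 stands at 7.44 and 7.78 without a ligand and at 9.67 and 9.79 with one, while Pbx4 spans 0.097.

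Between untreated EBs and ES cells, 5 of the 8 genes (Meis2, Meis3, Pbx2, Pbx3 and Pknox2) were past 1.5-fold higher and 0 were past it lower. Over all genes, 11.0% were past 1.5-fold higher and 8.52% lower in this comparison. The median log2 difference of the 8 genes was 1.19, beside -0.041 over all genes. Meis2 and Pknox2 had the largest differences of the 8, and only 192 and 213 of the 19938 genes had a larger positive difference than they did.

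Between RA-treated and untreated EBs, 2 of the 8 genes were past 1.5-fold higher, Meis1 and Meis2, and 0 were lower. The share of all genes past 1.5-fold was 2.07% higher and 2.22% lower. The median difference of the 8 genes was 0.10 and that of all genes 0. Beside Meis1 and Meis2, the differences ran from -0.39 in Pknox2 to 0.35 in Meis3. Among all 19938 genes, 886 had a lower difference than Pknox2 and 1049 a higher one than Meis3.

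Between bexarotene-treated and untreated EBs, Meis1 and Meis2 were again the 2 members past 1.5-fold higher, and 0 were lower. Of all genes, 1.48% were past 1.5-fold higher and 2.15% lower. The median of the 8 genes was 0.13 and that of all genes -0.0080. The other 6 genes had differences from -0.37 in Pknox2 to 0.35 in Meis3. This comparison and the one with RA rest on the same untreated array, so a deviation of that array would enter both.

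**Figure D2:**
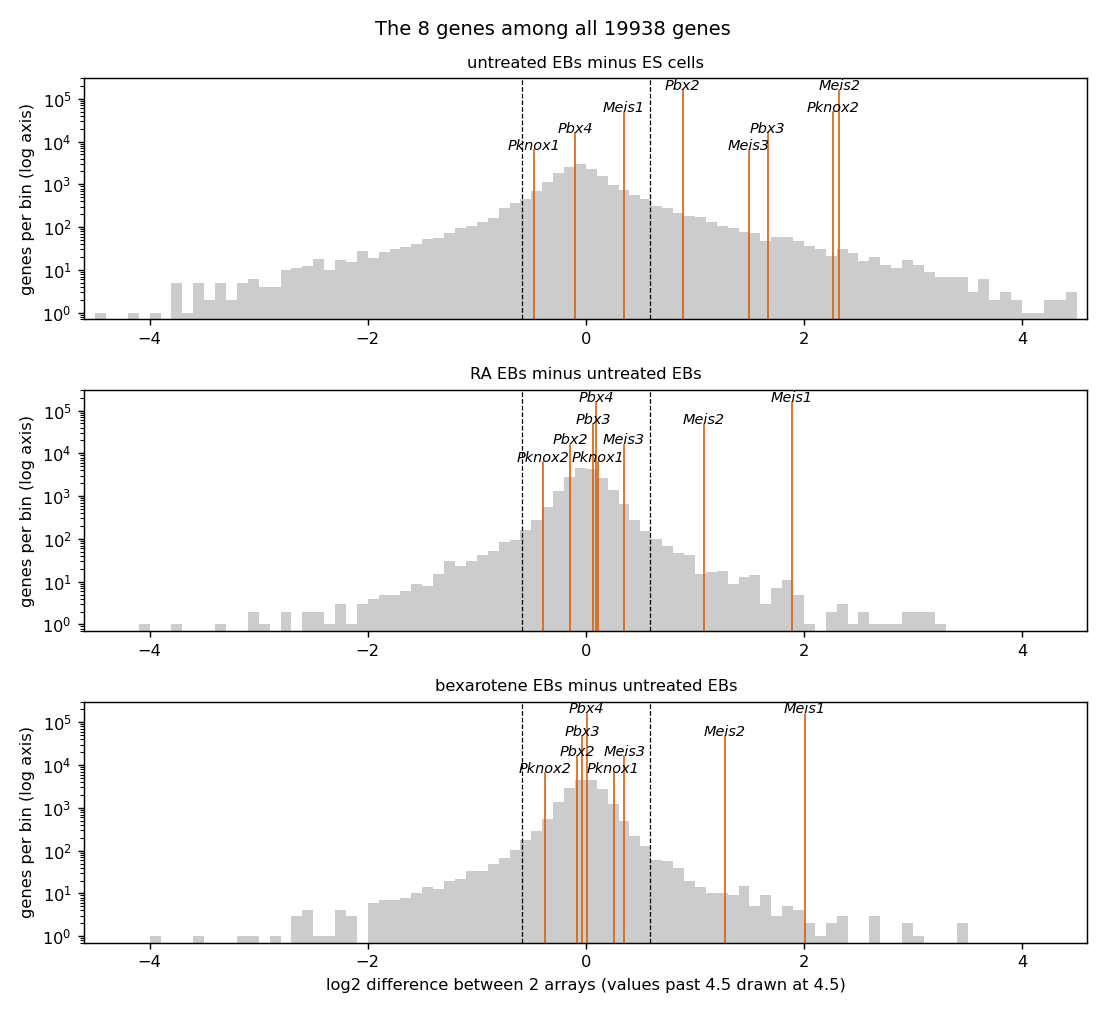
Number of genes (y axis, log scale) in bins of the log2 difference between 2 arrays (x axis), for untreated EBs against ES cells and for each ligand against untreated EBs. Orange lines mark the 8 genes and dashed lines mark 1.5-fold; 5 of the 8 genes lie past the right dashed line in the top panel, and only Meis1 and Meis2 do so in the panels of the ligands.

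Between the bexarotene and RA arrays, 0 of the 8 genes were past 1.5-fold in either direction. Of all genes, 0.196% were past it higher and 0.296% lower, so few genes of any kind differed this much. Meis2 had the largest difference of the 8, at 0.19, followed by Pknox1 at 0.14 and Meis1 at 0.12. Among all genes, 1029 had a larger positive difference than Meis2. Pbx3 and Pbx4 had differences of -0.10 and -0.088. Since the doses differ, no order of potency can be read from these values.

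Hox genes, whose products work with these cofactors, stood past the threshold only in part. Of 14 measured genes of paralog groups 1 to 5, which are expressed in hindbrain and anterior trunk, 6 were past 1.5-fold higher with RA and 8 with bexarotene, and 0 were lower with either. Their median differences were 0.46 and 0.64. Hoxa5 and Hoxc4 were past 1.5-fold only with bexarotene, at 0.62 and 0.67. Signals of these genes, and of Hoxa3, lay below the array median on every array. Hoxb2, Hoxb1, Hoxa2 and Hoxb3 had the largest differences from untreated EBs, with RA at 3.06, 2.63, 2.81 and 1.87 and with bexarotene at 3.49, 3.41, 3.09 and 1.74. Of 23 genes of groups 6 to 13, which pattern the trunk and tail, 0 were past 1.5-fold with either ligand, and the medians were 0.040 and 0.080. Values of the 2 lists overlapped, since Hoxb5, Hoxd1 and Hoxd4 of the anterior list had differences of 0.069, 0.070 and -0.065 with RA, below Hoxd12 at 0.45 and Hoxc13 at 0.36. Between untreated EBs and ES cells, 0 of the 14 anterior Hox genes were past 1.5-fold, with a median of -0.0043, whereas Meis2, Meis3, Pbx2, Pbx3 and Pknox2 were. In untreated EBs these 5 cofactor genes were thus past 1.5-fold above ES cells while the anterior Hox genes were not. Hoxa2 had the largest positive difference of the anterior list, at 0.45, with signals below the array median on both arrays. With a ligand Meis1 and Meis2 stood higher together with part of the Hox genes.

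Of 9 measured genes among the other TALE homeobox genes, the Irx and Tgif genes and Mkx, 0 were past 1.5-fold with RA and 1 was past it higher with bexarotene, Irx2 at a difference of 0.64. The medians of this list were 0.20 with RA and 0.27 with bexarotene, above the 0.10 and 0.13 of the 8 cofactor genes. Irx5, Irx3 and Irx4 lay just under the threshold with bexarotene, at 0.56, 0.50 and 0.48, and had 0.36, 0.052 and 0.20 with RA. Between untreated EBs and ES cells 4 of the 9 were past 1.5-fold higher, Irx5 with the largest difference of 1.62. A list of 13 genes described as targets of complexes of Hox, Pbx and Meis or Pknox proteins had 9 members past 1.5-fold higher with RA and 8 with bexarotene, and 0 lower, with medians of 1.01 and 0.72. It shares 5 genes with the anterior Hox list, namely Hoxa2, Hoxa3, Hoxb1, Hoxb2 and Hoxb4. Outside these, Pax6, a paired-box gene of eye and neural progenitors, had differences of 1.43 with RA and 1.42 with bexarotene, and Sst, which encodes somatostatin, had 1.15 and 0.60. Myog, the gene of the muscle factor myogenin, had differences of 0.27 and 0.32, below the threshold, and Aldh1a2, which encodes an enzyme that makes RA, had -0.43 and -0.13. Pf4 was past the threshold with RA only, at 0.60. Its signals, like those of Hoxa3, lay below the array median on every array.

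Markers of cell types also differed between the ligand arrays and the untreated array, some lists higher and others lower. Of 11 neuronal genes, 9 were past 1.5-fold higher with RA and 9 with bexarotene, and 0 were lower. Of 9 genes of hindbrain and anterior spinal cord, 3 were higher with each ligand and 0 lower, Dbx1 by log2 differences of 1.70 and 1.62, whereas Egr2, a marker of hindbrain rhombomeres, had -0.31 and -0.30. Of 8 forebrain and midbrain genes, 5 were lower with RA and 8 with bexarotene, and 0 were higher. The mean log2 signal of the neuronal list was 7.43 in ES cells and 7.40 in EBs without a ligand. It was 9.33 in RA-treated EBs and 8.82 in bexarotene-treated EBs. The mean of the forebrain and midbrain list was 6.99, 8.97, 7.64 and 7.13 in the same order. Meis1 and Meis2 stood only 0.12 and 0.19 higher with bexarotene than with RA, beside a robust SD of 0.109 and 0.0873 at their signals. Markers of undifferentiated ES cells bore out the labels, since in EBs without a ligand 7 of 8 were below ES cells by over 1.5-fold, yet 5 of 8 were past it higher with RA than in untreated EBs and 0 with bexarotene. Their mean log2 signal was 10.4, 7.88, 8.44 and 8.14 in the same order. The part of these shifts in the differences of the cofactor genes was not tested.

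Blood and mesoderm were also checked, because Meis1 is known from blood progenitors and Meis2 from limb mesenchyme. Of 8 genes of blood and endothelium, 0 were past 1.5-fold higher and 4 lower with RA, and 1 was higher, Gata2 at 0.59, and 4 lower with bexarotene. The embryonic globin gene Hbb-bh1 had differences of -1.54 with RA and -1.71 with bexarotene. Of 7 genes of lateral mesoderm and limb, 0 were higher and 3 lower with RA, and 2 were higher and 1 lower with bexarotene. Osr1, a gene of intermediate and lateral mesoderm, had -0.30 with RA and 1.41 with bexarotene, so it differed far more between the ligands than Meis1 or Meis2 did. Of 7 paraxial mesoderm genes, 0 were past 1.5-fold with RA and 1 with bexarotene, Meox1 at 1.18. In these lists, as in the Meis genes, the array values alone do not say which cells carried the RNA.

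**Figure D3:**
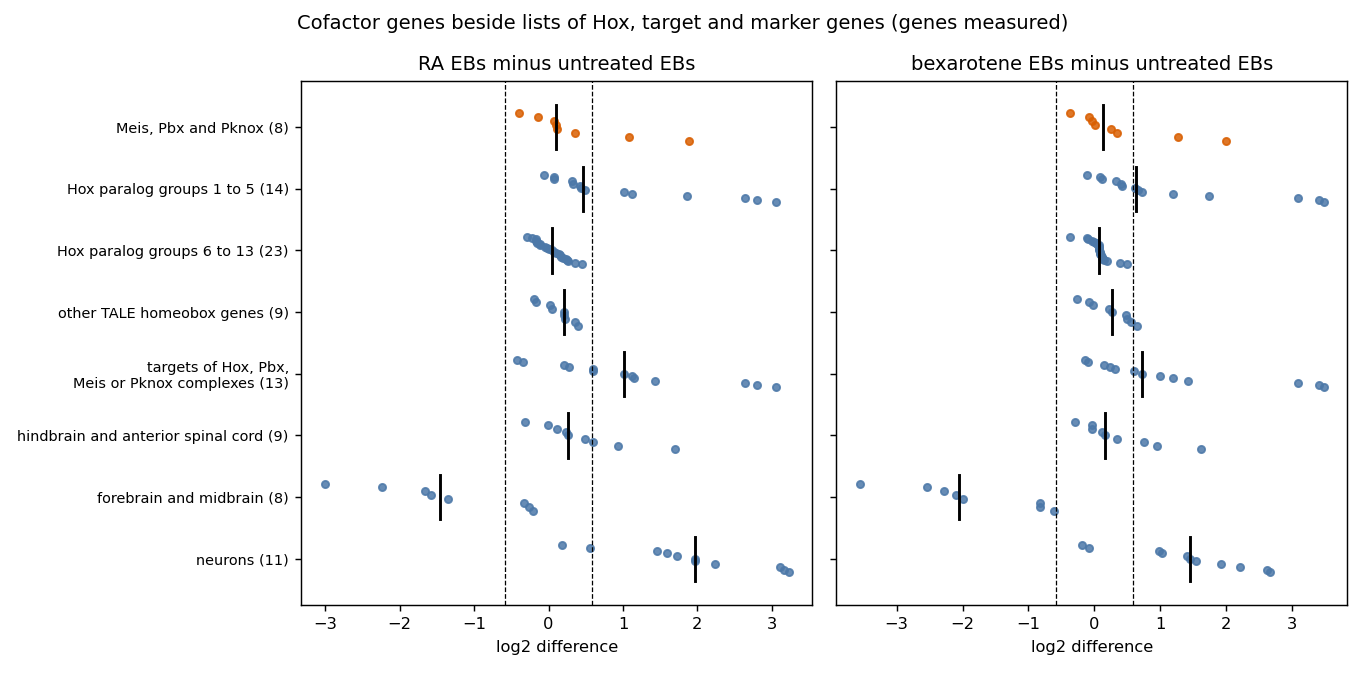
Log2 difference from untreated EBs (x axis) with RA on the left and bexarotene on the right, with 1 point per gene, the number of measured genes in parentheses and black bars at list medians. Dashed lines mark 1.5-fold; 2 of the 8 cofactor genes lie past it on the right, as do 6 (RA) and 8 (bexarotene) of 14 Hox genes of groups 1 to 5, and forebrain and midbrain genes lie on the left.

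The profiles of the 8 genes over the 4 arrays were compared after each was centred on its own mean, by the Euclidean distance between them on the log2 scale. The closest pair was Meis3 and Pbx3, at 0.287, followed by Pbx4 and Pknox1, at 0.321, and Pbx3 and Pknox2, at 0.443. Meis1 and Meis2 were 1.42 apart, so although both stood higher with the ligands they were not near each other in shape, and Meis2 and Pknox1 were farthest apart, at 3.11. The distance keeps the size of the differences, so genes that hardly moved are close to each other for that reason, as Pbx4 with its span of 0.097 was to Pknox1. These distances describe 4 points each.

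Genes outside the family with the nearest profile were sought for the 5 members whose signal spanned at least 1 on the log2 scale. The search covered 12014 named genes with a signal at or above the array median on at least 1 array. For Meis1 the nearest were Hoxaas2 (distance 0.309), a noncoding transcript of the Hoxa cluster, Hoxb3 (0.322) and Clvs1 (0.342). Next came the neurofilament gene Nefm (0.364) and Cyp26b1 (0.475), which encodes an enzyme that degrades RA. Hoxaas2 and Nefm reached the array median only on the ligand arrays. Only 6 of the genes searched lay within 0.5 of Meis1. Hoxb3 had a signal of 6.98 in ES cells, 7.14 in EBs without a ligand, 9.004 in RA-treated EBs and 8.88 in bexarotene-treated EBs, and Cyp26b1 had 6.92, 6.82, 8.72 and 8.63. Like Meis1, both were low without a ligand and high with either, which follows from how they were picked and is no separate result.

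For Meis2 the nearest genes were the integrin gene Itgb8 (0.159), the zinc finger gene Plagl1 (0.349), the axon guidance receptor gene Robo2 (0.358), Pax6 (0.372) and Nr2f1 (0.399), an orphan nuclear receptor gene of the developing nervous system. Within 0.5 of Meis2 lay 12 genes. Pax6 had a signal of 6.29 in ES cells, 8.13 in EBs without a ligand, 9.56 in RA-treated EBs and 9.55 in bexarotene-treated EBs, and Nr2f1 had 5.70, 8.24, 9.66 and 9.52. In both, as in Meis2, untreated EBs stood between ES cells and the ligand arrays, which again follows from how they were picked.

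The other profiles were common ones. Within 0.5 of Meis3 lay 317 genes, of Pbx3 438 genes and of Pknox2 192 genes. The 5 nearest to Meis3 were Tcim (0.0514), Plch1 (0.0730), Tcf12 (0.0861), Msi1 (0.112), which encodes an RNA-binding protein of neural progenitors, and Slit1 (0.118), which encodes an axon repellent. Those nearest to Pbx3 were Sox21 (0.0577), a gene of neural progenitors, Mmp16 (0.0716), Ctxn1 (0.0870), Ppp1r3c (0.0872) and Cobll1 (0.0907). Those nearest to Pknox2 were Prkar2b (0.0862), Fras1 (0.120), Gpc3 (0.120), Slit3 (0.134) and Smad3 (0.139). With so many genes this close, the names nearest to Meis3, Pbx3 and Pknox2 say little about any single gene.

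**Figure D4:**
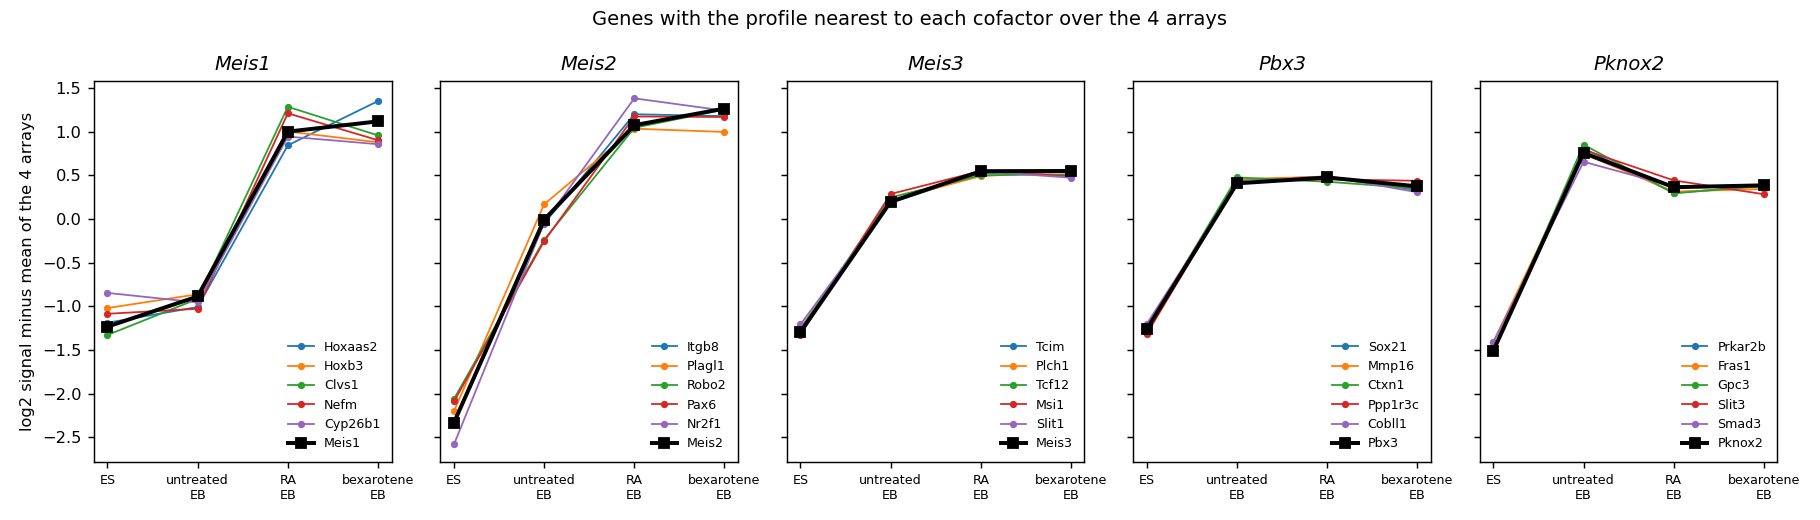
Log2 signal minus the mean of the 4 arrays (y axis) for 5 cofactor genes (black squares) and the 5 genes nearest to each (coloured points) on the 4 arrays (x axis). Meis1 and its neighbours are low on both arrays without a ligand, whereas Meis2 and its neighbours are already higher in untreated EBs; the neighbours of Meis3, Pbx3 and Pknox2 nearly coincide with them.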

How the data were processed

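Affymetrix whole-transcript GeneChips were hybridized with RNA of 4 cultures, 1 per condition. The deposited table gives log2 signal for each probe set, after background correction, normalization over the arrays and summarization by the authors in Affymetrix Expression Console. The submitters' notes name GCRMA and the article RMA, and versions of the build and annotation they used are not given in the sources used here. Scanner files were not used here, and on arrays the number of arrays limits the precision. GEO's platform annotation gives 1 symbol for 21789 of 35556 probe sets, several for 1621 and none for 12146. All 8 members matched a RefSeq gene (GRCm38.p6) by symbol and Entrez ID.

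A gene with several probe sets stood by the one with the highest mean. Differences between arrays were computed in Python 3.11.15 with pandas 2.3.3, and 1.5-fold was the threshold. The robust SD was taken in 20 bins of signal. Only the 1.5-fold call was tried on simulated arrays, with 200 genes changed 3-fold, a change well past the threshold. The simulation does not model the spread between cultures, and the other steps were not tried on it. No test was possible on single arrays. The members and the 12 gene lists were chosen with earlier results of these data known. Named genes are all members, up to 4 members of a list by largest difference from untreated EBs, and the 5 nearest profiles of each member that spans at least 1. Nearest profiles were sought without unnamed gene models and without genes below the array median on all 4 arrays. Hoxa3, Hoxa5, Hoxb4, Hoxb5, Hoxc4, Hoxd1, Hoxd4, Sst, Myog, Aldh1a2, Pf4, Egr2, Gata2 and the motifs were chosen after values were seen. Alternatives were a 2-fold threshold, quantile normalization, median centring, raising signals below each array's 25th percentile to it, the mean of a gene's probe sets, and leaving out probe sets below the median of both arrays.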

Additional observations from a re-analysis of the deposited data

How the results depend on the processing

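The 4 counts of genes past 1.5-fold changed under 1 of the 6 alternatives and in 1 comparison. At a 2-fold threshold 4 of the 8 genes, Meis2, Meis3, Pbx3 and Pknox2, stayed past it between untreated EBs and ES cells, and Pbx2 did not. Meis1 and Meis2 remained the 2 genes past the threshold with RA and with bexarotene under all 6 alternatives, and 0 were past it between the ligands. Each member has 1 probe set and lies above the array medians, so the floor, the mean of probe sets and the filter on low signal could not change its value and say nothing of its stability. Quantile normalization and median centring could, and under these 2 alternatives 0 of the 64 recomputed differences of single genes changed sign, though median centring moves all genes of a comparison alike. The largest move was 0.10, in Meis1 between untreated EBs and ES cells under quantile normalization. No replicate could be left out and no paired analysis was possible because each condition has 1 array, so none of this bears on the spread between cultures. Whether the arrays would keep these values under RMA or GC-RMA from the scanner files was not tested.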

Other observations

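Genes of RA handling and RA response were set beside the cofactor genes. Of 13 measured, untreated EBs had 9 past 1.5-fold above ES cells and 1 below, and the median log2 difference was 0.92. With RA 4 were higher than in untreated EBs and 0 lower, and with bexarotene 5 were higher and 0 lower, with medians of 0.11 and 0.27. Cyp26b1 had the largest differences, at 1.90 with RA and 1.81 with bexarotene, close to those of Meis1. Crabp2, which encodes an RA carrier protein, had 0.73 and 1.31, and Tshz1 had 1.06 and 1.21. Rarb and Cyp26a1, well known RA targets, had -0.38 and -0.36 with RA and 0.27 and 0.27 with bexarotene, none past 1.5-fold from untreated EBs. They were past it between the ligands, at 0.65 and 0.63 higher with bexarotene than with RA. Both stood higher in untreated EBs than in ES cells, by 2.31 and 3.86. Their pattern differs from that of Meis1, which was close to its ES cell signal in untreated EBs. Rarb and Cyp26a1 were named after their values were seen.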
